A study of Mus musculus with 12 samples.

Results

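The comparison described here is minP1 given alone against control, in 6 tumour samples out of the 12 of the series: 3 from mice that received minP1 and 3 from control mice. The samples were chosen by their titles, and every gene symbol of their count tables was described, with functional families beyond antigen presentation and interferon in view. minP1 is, per the labels, an immunostimulatory peptide of HMGN1, a nucleosome-binding chromatin protein. All mice were wild-type BALB/c animals carrying subcutaneous tumours of Colon26, a mouse colon carcinoma line, grown from 200000 cells injected into the right flank. The minP1 group received a single intraperitoneal dose of 0.08 µg on day 9 and its tumours were taken on day 10, 1 day later, together with those of the control group. The labels name no vehicle for the controls. The other 6 samples came from mice given an anti-PD-L1 antibody (clone 10F.9G2, 200 µg on days 4 and 8) without minP1, or with it (the combination). Each of the 12 samples stems from its own mouse, so the spread within a group includes that between animals. The labels give neither the age nor the sex of the mice.

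HMGN1 binds nucleosomes inside the cell and, once released, acts as an alarmin, a danger signal that activates antigen-presenting cells through the receptor TLR4. TLR4 signalling runs through NF-kB and interferon regulatory factors and is known to induce inflammatory cytokines, chemokines, metallothioneins and changes in iron and lipid metabolism in myeloid cells. A subcutaneous Colon26 tumour holds carcinoma cells, fibroblasts, macrophages, monocytes, neutrophils and lymphocytes. Here minced tumours were treated with collagenase and DNase I, a Percoll density step depleted carcinoma and dead cells, and the polyadenylated RNA of what remained was sequenced from the 5′ ends of transcripts. In such bulk samples, fewer cells of a type and less RNA per cell cannot be told apart.

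The 6 libraries held 276203 to 473273 counts each, over 19921 gene symbols, and the 12 libraries 133917 to 473273. Among the minP1 libraries, replicate 2 stood apart: its log2 levels correlated with those of replicates 1 and 3 at r = 0.872 and 0.877, against 0.927 between replicates 1 and 3 (across 5443 genes, which are not independent). The noncoding RNA Bc1 and Lrrc17 together took 4.17% of its counts, against 1.94% and 1.5% in the other minP1 libraries and 1.36% to 2.34% in the controls. Among the controls, replicate 1 correlated with replicates 2 and 3 at r = 0.888 and 0.891, against 0.930 between replicates 2 and 3. Values without minP1 replicate 2 stand beside the results that it moved most, and values without control replicate 1 beside some list medians. Carcinoma-type epithelial markers were near the floor in all 6 libraries: of 12 such markers in the tables none passed the filter on low counts, their summed counts were 8 to 16 per control library and 2 to 11 per minP1 library, and the keratin Krt18 had 0 counts in all 6.

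Of the 19921 symbols, 5443 had enough counts to be tested, and no gene passed in either direction at an adjusted p of 0.05 (0% of genes, edgeR quasi-likelihood test with Benjamini-Hochberg adjustment, smallest adjusted p 0.287). At an unadjusted p under 0.05 there were 383 genes, 7.04% of those tested, 210 of them higher (3.86%) and 173 lower (3.18%) with minP1. DESeq2 called 1 gene, Ube2u, and limma voom none. Without minP1 replicate 2 no gene passed either, and 232 of 5913 tested had an unadjusted p under 0.05. The median log2 fold change over all genes tested was -0.004, the middle 50% of genes lay between -0.26 and 0.26, and the median standard error was 0.36. In 674 genes (12.4%) the 3 minP1 libraries did not overlap with the 3 control libraries, all above them in 310 genes (5.7%) and all below them in 364 (6.69%). These shares are the background for the counts that follow. Because no gene passed, no member of any of the 54 gene lists passed either, and the values below are descriptions of these 6 libraries. Levels are CPM, the share of a library's counts in units of 1e-06, scaled by the totals of tested genes and TMM factors, and log2 fold changes are minP1 over control with their standard errors.

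Metallothioneins, small cysteine-rich proteins that bind zinc and copper, had the most abundant gene among those with the smallest p-values. Mt1 stood at 2269.6, 2146 and 3930.1 CPM in the controls and at 6837, 5181 and 5401 CPM in the minP1 libraries. Every minP1 library lay above every control library, and control replicate 3 was the highest control. The log2 fold change of Mt1 was 1.06 ± 0.25 (adjusted p = 0.287) and 1.14 ± 0.27 without minP1 replicate 2. It passed the test when control replicate 3 was left out (1.40, adjusted p = 0.022) and when no filter on low counts was applied (adjusted p = 0.0139). Mt2, its neighbour and close relative, stood at 492, 709 and 1747 CPM in the controls and 1942, 967 and 1923 CPM with minP1. Control replicate 3 and minP1 replicate 2 made these groups overlap, and the log2 fold change was 0.71 ± 0.41. Of the 8 tested genes of the metallothionein and zinc transport list, 7 had a positive log2 fold change, with a median of 0.24. The zinc transporter genes Slc39a7 and Slc39a1 differed by 0.29 ± 0.24 and 0.32 ± 0.28, and Slc39a10 by -0.43 ± 0.44, so Mt1 and Mt2 had the largest values of the list.

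Both genes lie on chromosome 8 of GRCm38, Mt1 at chr8:94179082-94180327 and Mt2 at chr8:94172664-94173568, on the plus strand and both protein-coding in GENCODE M21. Their upstream 250 bases are shown because these are the 2 metallothionein genes that could be tested. The sequences are from RefSeq (GRCm38.p6), read 5′ to 3′ on the plus strand, with matches in capitals to the core of the metal response element that MTF1 is known to bind, searched as TGCACNC or TGCGCNC on both strands. Of 32851 such upstream windows of mouse transcripts, 21.4% held at least 1 match and 1.26% at least 3. Mt1 held 1 match and Mt2 held 3. The Mt1 window ends at 94179088, beside an annotated gene start of 94179082, and the Mt2 window at 94172617, beside 94172664. Bases outside these windows were not searched, so the counts are not the full number of matches near either gene.
Mt1, chr8:94178839-94179088: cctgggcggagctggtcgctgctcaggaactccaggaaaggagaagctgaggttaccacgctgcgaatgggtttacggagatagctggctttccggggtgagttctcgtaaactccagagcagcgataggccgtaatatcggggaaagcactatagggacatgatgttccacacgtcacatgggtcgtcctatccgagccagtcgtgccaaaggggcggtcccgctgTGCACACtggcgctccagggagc
Mt2, chr8:94172368-94172617: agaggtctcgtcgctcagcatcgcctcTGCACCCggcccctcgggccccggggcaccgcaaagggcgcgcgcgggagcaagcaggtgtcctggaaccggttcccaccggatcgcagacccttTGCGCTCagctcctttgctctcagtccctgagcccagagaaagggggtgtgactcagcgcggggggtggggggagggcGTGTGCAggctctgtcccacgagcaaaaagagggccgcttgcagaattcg
A match is a run of letters and not a measured binding site.

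Fcgr4, Inpp5d, Cd44 and Tfrc were higher in every minP1 library than in any control. Fcgr4, an activating Fc receptor of macrophages and monocytes, stood at 14.3, 32.9 and 47.0 CPM in the controls and 67.7, 73.2 and 92.2 CPM with minP1, a log2 fold change of 1.26 ± 0.39. The phosphatase gene Inpp5d, which encodes SHIP1 and restrains phosphoinositide signalling in blood cells, stood at 8.59, 10.97 and 4.48 CPM and 26.3, 25.6 and 29.6 CPM, a log2 fold change of 1.78 ± 0.57. In both genes all 3 minP1 libraries lay close together and above the controls, on few counts. Cd44, the hyaluronan receptor, stood at 381, 314 and 571 CPM and 704, 725 and 649 CPM (0.70 ± 0.23). Tfrc, the transferrin receptor that imports iron, stood at 83.0, 102 and 82.9 CPM and 188, 143 and 138 CPM (0.81 ± 0.29). Neither gene's groups overlapped, and minP1 replicate 2 was within the range of its group for Tfrc and at the top of it for Cd44. The list of Fc and C-type lectin receptors, which holds Fcgr4, had 3 positive and 3 negative members among 6 tested. Of these, 2 were higher without overlap (33.3%, beside 5.7% over all genes). The iron list, which holds Tfrc, had 5 positive and 5 negative members among 10 tested and a median of -0.04 (0.05 without minP1 replicate 2). There 2 genes were higher and 2 lower without overlap (20% each, beside 5.7% and 6.69% over all genes). In that list the haem oxygenase Hmox1 differed by -0.61 ± 0.39 (-0.35 ± 0.42 without minP1 replicate 2) and the iron chaperone Pcbp1 by -0.73 ± 0.38. The ferritin heavy chain Fth1 stood at 22.9, 208 and 109.7 CPM and 37.6, 18.3 and 105 CPM (-1.01 ± 0.54), a value that ranged from -1.97 to -0.31 with 1 library left out.

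Bcl2l1, Tob1 and Golph3 were also among the 310 genes that were higher without overlap. Bcl2l1, which encodes the anti-apoptotic protein BCL-XL, stood at 63.0, 98.7 and 82.9 CPM in the controls and 132, 209 and 138 CPM with minP1 (0.97 ± 0.28, 0.74 ± 0.31 without minP1 replicate 2). Tob1, an anti-proliferative adaptor of mRNA deadenylation, stood at 45.8, 58.5 and 62.7 CPM and 128, 80.6 and 109 CPM (0.91 ± 0.29). Golph3, which shapes Golgi membranes, stood at 195, 128 and 137 CPM and 245, 286 and 250.3 CPM (0.76 ± 0.24). The salt-inducible kinases Sik1 and Sik3, which restrain CREB coactivators, differed by 1.10 ± 0.37 and 1.21 ± 0.39, and both were higher in all 3 minP1 libraries. The lipid-sensing receptor gene Gpr132 differed by 1.39 ± 0.46 and the nuclear receptor coactivator gene Ncoa5 by 1.27 ± 0.38, likewise with no overlap. Inpp5d, Cd44, Tob1, Golph3, Sik1, Sik3, Gpr132 and Ncoa5 were chosen after their values were seen.

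**Figure D1:**
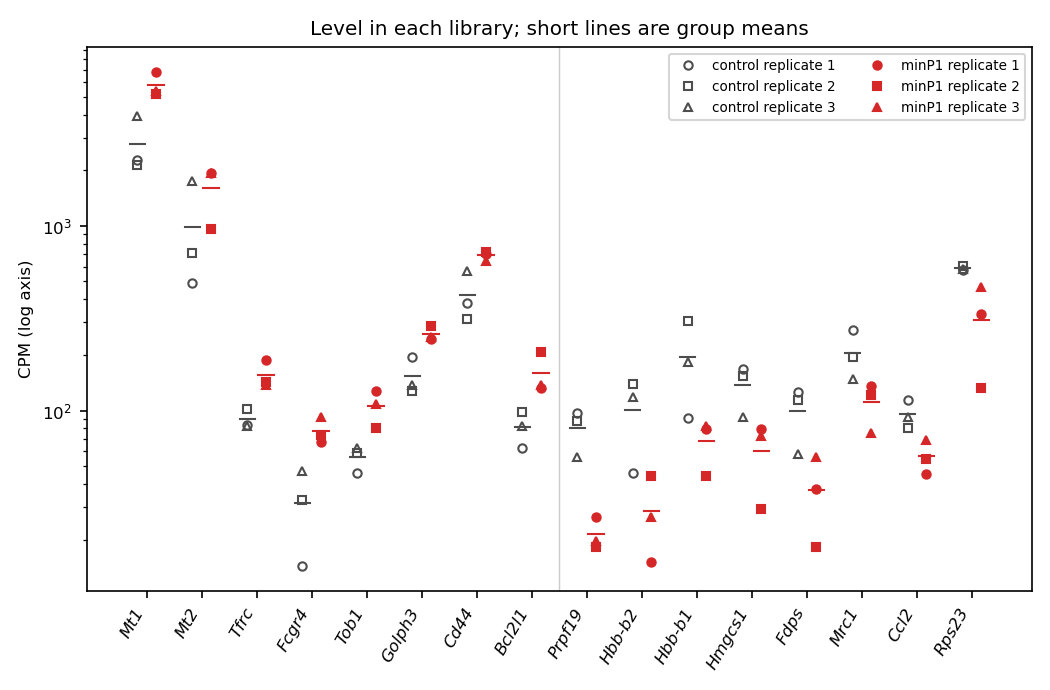
Level of 16 genes in each of the 6 libraries, in CPM on a log axis; open grey symbols are control libraries, filled red symbols minP1 libraries, symbol shape the replicate number and short lines the group means. For Mt1 the minP1 libraries lie at 5181 to 6837 CPM and above all controls, for Prpf19 they lie at 18.3 to 26.3 CPM and below all controls, and Mt2 is the 1 gene shown whose groups overlap.

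In the list of TNF, IL-1 and NF-kB inflammation, Rela, which encodes the p65 subunit of NF-kB, stood at 71.6, 47.5 and 56.0 CPM in the controls and 117, 80.6 and 122 CPM with minP1 (0.85 ± 0.34). The groups did not overlap. Tnfaip2 (0.55 ± 0.30) was the other non-overlapping gene of the list, and Tnfaip3, a feedback inhibitor of NF-kB, differed by 0.50 ± 0.34 with overlap. The cytokine gene Il1b differed by -0.12 ± 0.50. In all, 2 of 16 tested genes were higher without overlap (12.5%, beside 5.7% over all genes) and none lower. The median was 0.09, beside -0.004 over all genes. Plaur, the urokinase receptor, stood at 155, 109.7 and 125 CPM and 275, 161 and 194 CPM (0.68 ± 0.28), with no overlap. In the glucocorticoid and circadian list, only the clock genes Arntl and Per1 of 10 tested did not overlap. Both were higher (20%, beside 5.7% over all genes), with log2 fold changes of 0.86 ± 0.36 and 0.86 ± 0.41. Clock differed by -0.76 ± 0.44. The median of that list was 0.28, and the glucocorticoid target Tsc22d3 differed by 0.43 ± 0.25.

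The genes with the largest positive fold changes rested on minP1 replicate 2. Of the 117 genes that were higher in all minP1 libraries and had an unadjusted p under 0.05, 27 were more than 2-fold higher in replicate 2 than in either other minP1 library. They include 10 of the 12 non-overlapping genes with the smallest p-values on the higher side, predicted genes aside: Ube2u, Prkag3, Cdk15, Slc35f1, Fam19a1, Zfp811, Pigr, Il1rapl2, Bco1 and the coagulation factor gene F10. Mt1 and Bcl2l1 are the other 2. Il1rapl2, a neuronal member of the interleukin-1 receptor family, stood at 31.5, 47.5 and 44.8 CPM in the controls and 71.5, 369.8 and 62.6 CPM with minP1. Prkag3, a skeletal muscle subunit of the AMP-activated kinase, stood at 5.72, 18.3 and 20.2 CPM and 45.2, 227 and 49.4 CPM. Ube2u, a ubiquitin-conjugating enzyme gene and the only gene that DESeq2 called, stood at 14.3, 54.8 and 42.5 CPM and 94.1, 344 and 72.4 CPM. In each of these 3 genes the groups did not overlap, but replicate 2 alone stood far above the rest. Without replicate 2 the log2 fold change of Ube2u was 1.17 ± 0.40 in place of 2.19 ± 0.47, that of Prkag3 1.64 ± 0.61 in place of 2.80 ± 0.65, and that of Il1rapl2 0.70 ± 0.50 in place of 2.01 ± 0.57. Over the 27 genes, which were chosen for their level in replicate 2, the median was 1.02 without that library in place of 1.83.

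**Figure D2:**
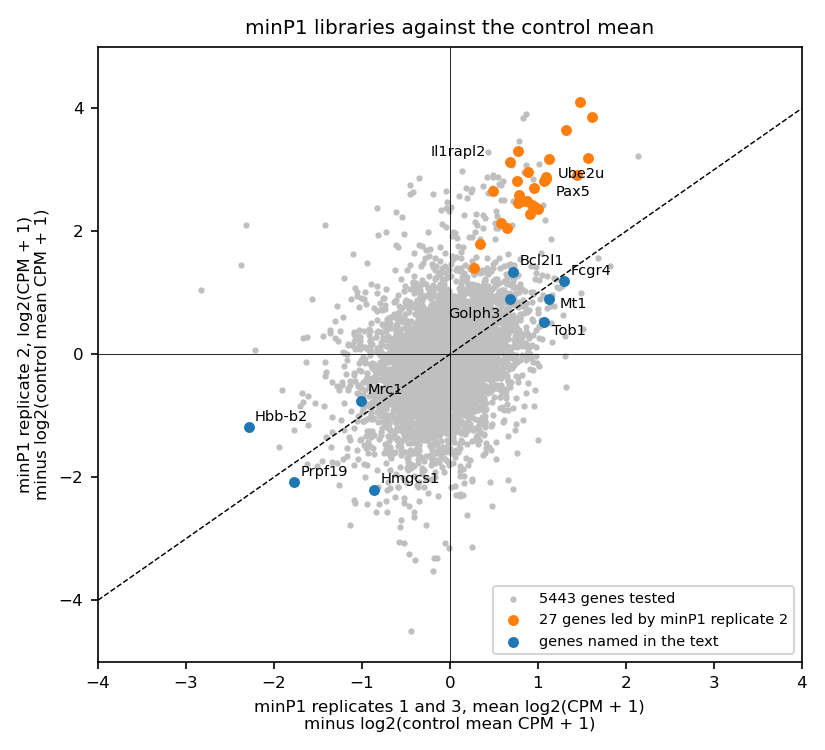
Each of the 5443 tested genes by its level in minP1 replicates 1 and 3 (mean log2(CPM + 1), x axis) and in minP1 replicate 2 (y axis), both relative to the control mean; the dashed line marks equal values. The 27 genes led by replicate 2 (orange) lie above the line, while Mt1, Fcgr4, Tob1 and Golph3 (blue) lie near or below it.

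The 27 include genes known from retina (Cngb1, Clrn1), muscle (Prkag3) and neurons (Il1rapl2, Fam19a1), and the B cell factor gene Pax5. Predicted or clone symbols made up 8 of the 27 (29.6%), against 7.28% of the 5443 genes tested. Their median log2 ratio to the control mean was 2.71 in minP1 replicate 2 and 0.82 and 0.95 in replicates 1 and 3. In the antibody-treated libraries it was 1.22 to 1.89 with anti-PD-L1 and 1.68 to 3.15 with the combination. These libraries took part in the filter on low counts and in the fit, so a gene could be tested because it was high there. Ccdc168, 1 of the 27, had 2, 1 and 2 counts in the controls and 2, 15 and 3 with minP1. It stood at 42.7, 41.8 and 45.1 CPM with the combination. In the 3 libraries where the median ratio of the 27 genes was above 2.5, Bc1 and Lrrc17 took 4.17% (minP1 replicate 2), 5.04% (combination replicate 1) and 6.32% (combination replicate 2) of the counts. They took 4.42% in anti-PD-L1 replicate 1, whose median was 1.89, and 2.35% and 3.56% in the other 2 anti-PD-L1 libraries and 2.49% in combination replicate 3. The part of these 2 transcripts in the values of the 27 genes was not tested. Pax5 stood at 11.4, 7.31 and 4.48 CPM in the controls and 18.8, 62.2 and 16.5 CPM with minP1, and the sum of the 13 B and plasma cell markers in the tables was 23 to 40 counts per control library and 30 to 34 per minP1 library.

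**Figure D3:**
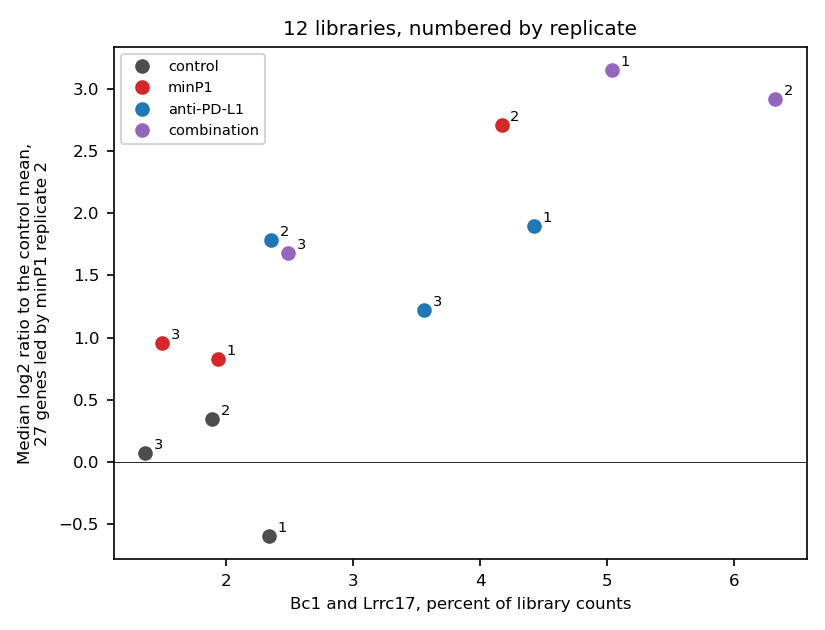
The 12 libraries by their share of Bc1 and Lrrc17 counts (x axis, percent) and by the median log2 ratio to the control mean of the 27 genes led by minP1 replicate 2 (y axis); colours are groups and digits replicate numbers. minP1 replicate 2 lies at 2.71 and 4.17%, and the other 2 minP1 libraries at 0.82 and 0.95, a gap that the choice of the genes sets. Anti-PD-L1 replicate 1 lies at 1.89 and 4.42%, and combination replicates 1 and 2 at 3.15 and 5.04% and at 2.91 and 6.32%.

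Among the genes that were lower, Prpf19, a ubiquitin ligase of the spliceosome (chr19:10895231-10909559), had the smallest p. It stood at 97.3, 87.8 and 56.0 CPM in the controls and at 26.3, 18.3 and 19.8 CPM with minP1, without overlap. These levels rested on few counts, 34, 24 and 25 in the controls and 7, 5 and 6 with minP1. The log2 fold change was -1.87 ± 0.42 (adjusted p = 0.287) and -1.77 ± 0.49 without minP1 replicate 2. It passed when no filter on low counts was applied (adjusted p = 0.024). U2af2, which recognises the polypyrimidine tract at 3′ splice sites, stood at 60.1, 54.8 and 42.5 CPM and 26.3, 10.99 and 32.9 CPM (-1.12 ± 0.44, -0.79 ± 0.46 without minP1 replicate 2). Snu13, a protein of the U4/U6 small nuclear ribonucleoprotein, stood at 97.3, 95.1 and 98.5 CPM and 52.7, 25.6 and 56.0 CPM (-1.10 ± 0.34, -0.83 ± 0.36 without minP1 replicate 2). Of the 51 tested splicing factor genes, 35 were negative and 16 positive, 4 were lower without overlap (7.84%, beside 6.69% over all genes) and 1 was higher (1.96%, beside 5.7%), with a median of -0.08. Without minP1 replicate 2, 7 were lower without overlap (13.7%, beside 10.9%). Bcas2, a partner of PRPF19 in its complex, differed by -0.47 ± 0.24.

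Sept7, a filament-forming GTPase of the cell cortex, stood at 258, 303 and 282 CPM in the controls and 120.4, 161 and 171 CPM with minP1 (-0.89 ± 0.24). The oligosaccharyltransferase subunit Stt3a, which adds N-glycans in the endoplasmic reticulum, stood at 54.4, 51.2 and 62.7 CPM and 18.8, 7.32 and 32.9 CPM (-1.47 ± 0.47, -1.09 ± 0.48 without minP1 replicate 2). Ppp1r35, a centrosomal protein gene, and Mpp6, a membrane scaffold gene, differed by -1.81 ± 0.55 and -1.43 ± 0.47. None of these 4 genes had overlapping groups, and each kept its sign when any single library of the 6 was left out. In the minP1 libraries, counts were few for Stt3a (5, 2 and 10), Ppp1r35 (3, 4 and 3) and Mpp6 (5, 5 and 5).

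The beta-globin genes had negative log2 fold changes, while the alpha-globin genes had values near 0 whose sign depended on minP1 replicate 2. Hbb-b2 stood at 45.8, 139 and 119 CPM in the controls and 15.1, 43.9 and 26.3 CPM with minP1 (-1.80 ± 0.44), and Hbb-b1 at 91.6, 307 and 184 CPM and 79.0, 43.9 and 82.3 CPM (-1.48 ± 0.41). The groups were narrowly apart in both genes, since control replicate 1 was low. Hba-a1 stood at 592, 1126 and 1113 CPM and 523, 1893 and 543 CPM (0.06 ± 0.41), with minP1 replicate 2 far above the other minP1 libraries. Without that library, the log2 fold changes were -0.82 ± 0.35 for Hba-a1 and -0.88 ± 0.37 for Hba-a2. The beta-globin entries Hbb-bs and Hbb-bt had too few counts for the filter, 56 and 35 over the controls and 12 and 10 over the minP1 libraries. Each globin pair is nearly identical in sequence, and how reads that match several genes were counted is not given in the sources used here. The split among the beta-globin entries is thus uncertain.

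The genes of 2 enzymes of the mevalonate pathway, which supplies sterols and isoprenoids, were lower in every minP1 library. Hmgcs1, the HMG-CoA synthase at the entry of the pathway, stood at 169, 154 and 91.8 CPM in the controls and 79.0, 29.3 and 72.4 CPM with minP1 (-1.17 ± 0.34). Fdps, the farnesyl diphosphate synthase, stood at 126, 113 and 58.2 CPM and 37.6, 18.3 and 56.0 CPM (-1.36 ± 0.40). Control replicate 3 and minP1 replicate 2 were the lowest libraries of their groups, and without minP1 replicate 2 the values were -0.85 ± 0.34 and -1.04 ± 0.41. The acyl-CoA binding protein gene Dbi stood at 189, 194 and 98.5 CPM and 82.8, 29.3 and 69.2 CPM (-1.38 ± 0.41, -1.06 ± 0.40 without minP1 replicate 2). Of the 15 tested genes of cholesterol synthesis and efflux, 12 had a negative log2 fold change, with a median of -0.27. Lower without overlap were 2 of them (13.3%, beside 6.69% over all genes), and none was higher. The median was -0.12 without minP1 replicate 2 and turned to 0.05 without control replicate 1. Sqle and Idi1 differed by -0.49 ± 0.31 and -0.42 ± 0.47, the latter by -0.12 ± 0.47 without minP1 replicate 2.

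The 250 bases upstream of Hmgcs1 (RefSeq, GRCm38.p6, plus strand, 5′ to 3′) are shown because this gene was the sterol gene whose window held the core of the sterol regulatory element that SREBP factors bind, searched as TCACNCCAC on both strands and given in capitals. It was found in 1 of the 9 tested sterol genes with a sequence in the table and in 1.05% of the 32851 windows.
Hmgcs1, chr13:119690101-119690350: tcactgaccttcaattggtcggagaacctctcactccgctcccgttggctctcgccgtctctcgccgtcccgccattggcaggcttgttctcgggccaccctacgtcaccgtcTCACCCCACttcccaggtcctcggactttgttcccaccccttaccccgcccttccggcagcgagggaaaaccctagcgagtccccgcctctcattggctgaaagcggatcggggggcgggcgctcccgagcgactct
No match in the other 8 says only that these letters are not in those windows.

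Chemokine genes, whose products attract monocytes, neutrophils and T cells, had the lowest median of the lists with at least 6 tested genes when all libraries were used. Of 12 tested, 5 were lower without overlap (41.7%, beside 6.69% over all genes), none was higher without overlap, and the median was -0.39, with and without minP1 replicate 2. Without control replicate 1 the median was -0.18, and that of the mitochondrially encoded list, at -0.56, was lower. Ccl12 and Ccl2 encode ligands of the monocyte receptor CCR2. Ccl12 stood at 65.8, 76.8 and 35.8 CPM in the controls and 22.6, 18.3 and 29.6 CPM with minP1 (-1.28 ± 0.51). Ccl2 stood at 114, 80.4 and 91.8 CPM and 45.2, 54.9 and 69.2 CPM (-0.75 ± 0.33). The macrophage chemokine genes Ccl4 and Ccl6 differed by -0.77 ± 0.38 and -0.62 ± 0.31, and the neutrophil attractant Cxcl2 by -0.44 ± 0.33, all without overlap. Ccl8 had the opposite sign (0.72 ± 0.37) and overlapping groups. The sum over all chemokine genes overlapped, at 1211, 925 and 954 CPM in the controls and 659, 1055 and 945 CPM with minP1. The list rested on few counts, 253 to 426 per control library and 175 to 288 per minP1 library. With all 12 libraries thinned to the smallest, the median of the fewer chemokine genes still tested was 0.50, and Ccl2 and Ccl4 were at 0.22 and 0.79.

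Markers of macrophages and neutrophils were mixed. Mrc1, the mannose receptor of tissue-type macrophages, stood at 272, 194 and 148 CPM in the controls and 135, 121 and 75.7 CPM with minP1 (-0.88 ± 0.31). The groups did not overlap. Ms4a7, another macrophage gene, differed by -0.66 ± 0.34, while Arg1 differed by 0.48 ± 0.29 and Clec10a by 1.02 ± 0.97 (0.60 ± 1.11 without minP1 replicate 2). Of the 14 tested macrophage and scavenger receptor genes, 9 were positive and 5 negative, with a median of 0.05, and the sum of all 24 in the tables was 8088 to 9215 CPM in the controls and 6972 to 11019 CPM with minP1. Of the 6 tested neutrophil genes, 4 were positive and 2 negative, with a median of 0.23. Cxcr2, the chemokine receptor of neutrophils, stood at 315, 263 and 251 CPM and 173, 172 and 217 CPM (-0.55 ± 0.24). It held 67.6% of the summed counts of its list. The neutrophil markers S100a8 (2 counts over the controls and 3 over the minP1 libraries) and Ly6g (0 and 1) were near the floor. S100a9, a granulocyte alarmin, stood at 8.59, 3.66 and 40.3 CPM and 7.53, 7.32 and 3.29 CPM, and its log2 fold change of -1.65 ± 0.72 was -0.10 without control replicate 3. Csf3r, also a neutrophil receptor, differed by 0.66 ± 0.37 (0.23 ± 0.41 without minP1 replicate 2). F13a1, a monocyte transglutaminase, stood at 68.7, 69.5 and 73.9 CPM and 18.8, 51.3 and 39.5 CPM (-0.94 ± 0.41). The monocyte receptor Ccr2 differed by -0.39 ± 0.27, both without overlap, while the monocyte product Fn1 (0.36 ± 0.22) lay above the controls. F10 (1.62 ± 0.46), led by minP1 replicate 2, and Ly6a (0.98 ± 0.37, with overlap) were also higher. Of the 10 tested monocyte genes, 6 were positive and 4 negative, with a median of 0.11 (-0.09 without minP1 replicate 2). Without overlap 2 were higher and 2 lower (20% each, beside 5.7% and 6.69% over all genes). Each of these 3 lists held genes of both signs.

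Lymphoid markers rested on few counts. The sum of 20 T cell markers was 17 to 55 counts per control library and 36 to 63 per minP1 library, and only Thy1 and Ctla4 passed the filter. Thy1, also a fibroblast gene and a member of the fibroblast and matrix list, stood at 37.2, 29.3 and 31.4 CPM in the controls and 52.7, 73.2 and 62.6 CPM with minP1 (0.93 ± 0.37). The log2 fold change of Ctla4, an inhibitory T cell receptor, was 1.02 ± 0.61 with all libraries, 0.28 ± 0.69 without minP1 replicate 2 and up to 2.51 with another library left out. The sum of 17 cytotoxic and NK cell markers was 20 to 78 and 44 to 67 counts, with Gzma at 20.0, 18.3 and 58.2 CPM in the controls and 52.7, 65.9 and 72.4 CPM with minP1 (0.90 ± 0.40). Control replicate 3 lay within the minP1 range. The plasmacytoid dendritic cell gene Siglech stood at 2.86, 14.6 and 20.2 CPM and 11.3, 84.2 and 13.2 CPM, so its log2 fold change of 1.44 ± 0.67 came from minP1 replicate 2 (-0.07 ± 0.74 without it). Of the genes that mark activated antigen-presenting cells, Cd83 differed by 0.19 ± 0.55. Tlr4 (18 counts over the 3 controls and 10 over the 3 minP1 libraries), Cd80 (36 and 10), Cd86 (7 and 12), Il12b (3 and 4) and Ccr7 (5 and 4) had too few counts for the filter, and in the fit without that filter none of these 5 genes passed the test (edgeR, smallest adjusted p 0.849). Cd80, a costimulatory ligand for T cells, had 9, 13 and 14 counts in the controls and 5, 3 and 2 with minP1. Every minP1 library was thus below every control, with a log2 fold change of -1.46 ± 0.58 in that fit (edgeR adjusted p = 0.849). Hmgn1, the mouse gene for the protein from which the peptide derives, stood at 678, 519 and 486 CPM and 546, 637 and 451 CPM (-0.04 ± 0.25).

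Cytosolic ribosomal protein genes held the largest number of non-overlapping members. All 81 were tested, 55 had a negative and 26 a positive log2 fold change, and 21 were lower without overlap (25.9%, beside 6.69% over all genes) while 1 was higher (1.23%, beside 5.7%). Without minP1 replicate 2, 23 were lower without overlap (28.4%, beside 10.9%). The differences were small: the median was -0.15, and it ranged from -0.23 to -0.13 when each library was left out. Rps23, a protein of the decoding centre, stood at 578, 607 and 584 CPM in the controls and 331, 132 and 464 CPM with minP1 (-0.93 ± 0.34). Rps12 stood at 7389.8, 5711 and 5271 CPM and 3939.9, 3563 and 4528 CPM (-0.61 ± 0.23), and Rpl35 at 1694, 1865 and 1800.5 CPM and 1016, 784 and 1544 CPM (-0.68 ± 0.28). In Rps23 and Rpl35, minP1 replicate 2 was the lowest of the 6 libraries, and without it they stood at -0.56 ± 0.30 and -0.48 ± 0.29, whereas in Rps12 the 3 minP1 libraries lay close together. Rplp1, the most abundant member, stood at 16442, 10896 and 9329 CPM and 11793, 19927 and 11038 CPM (0.22 ± 0.29, -0.10 ± 0.30 without minP1 replicate 2) and Rplp2 at 10870.0, 7587 and 8248 CPM and 10886, 13776 and 9514 CPM (0.36 ± 0.23). Of the 10 most abundant members 6 were positive, and of the other 71 members 20, a difference that was not tested. The 10 summed to 82246, 64322 and 63112 CPM in the controls and 70538, 89951 and 68842 CPM with minP1, so that only minP1 replicate 2 lay outside the control range. The sum over the list differed by less than its spread, at 190676 ± 16849.7 CPM in the controls and 190849 ± 17606 CPM with minP1 (mean ± SD, n = 3). Translation factors had a median of -0.06, with 4 of 36 lower (11.1%, beside 6.69%) and 3 higher (8.33%, beside 5.7%) without overlap. Pseudogene copies of ribosomal protein genes are common, and reads shared with them could be split in counting.

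Respiratory chain genes lay on the same side. Of 69 tested nuclear genes, 49 were negative, with a median of -0.21. Lower without overlap were 11 (15.9%, beside 6.69% over all genes), and 1 was higher (1.45%, beside 5.7%). The median stood at -0.05 without control replicate 1. Ndufa4 stood at 189, 117 and 78.4 CPM in the controls and 71.5, 69.6 and 75.7 CPM with minP1 (-0.81 ± 0.33). Its value ranged from -1.09 to -0.39 when 1 library was left out. Uqcrq, a subunit of complex III, stood at 140.2, 117 and 109.7 CPM and 90.3, 58.6 and 75.7 CPM (-0.70 ± 0.32). Atp5a1, the catalytic-sector alpha subunit of ATP synthase, was the exception at 736, 574 and 506 CPM and 899, 1186 and 751 CPM (0.64 ± 0.27). Of the 11 tested genes encoded by mitochondrial DNA, 10 were negative, with a median of -0.38. MT-Nd5 stood at 37.2, 58.5 and 42.5 CPM and 18.8, 29.3 and 9.88 CPM (-1.23 ± 0.46), and MT-Nd1 at 269, 373 and 314 CPM and 241, 157 and 207 CPM (-0.65 ± 0.31). Both had no overlap, and they were the 2 such members (18.2% lower, beside 6.69% over all genes). The 1 positive member was MT-Co3 at 2247, 1605 and 1552 CPM and 1626, 4804 and 1528 CPM (0.56 ± 0.36), which minP1 replicate 2 set: the value was -0.19 ± 0.31 without it. MT-Co3 held 42.6% of the summed counts of the list. That sum was 4951, 5090 and 4994 CPM in the controls and 4128, 7518 and 3889 CPM with minP1.

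Cytoskeletal and calcium-binding protein genes leaned lower as well. Of 39 tested actin cytoskeleton genes, 27 were negative, with a median of -0.18 that became -0.05 without minP1 replicate 2. Lower without overlap were 6 (15.4%, beside 6.69% over all genes), and 3 were higher (7.69%, beside 5.7%). Arpc3, a subunit of the actin-nucleating ARP2/3 complex, stood at 103, 128 and 134 CPM in the controls and 48.9, 62.2 and 85.6 CPM with minP1 (-0.88 ± 0.32). Capza2, an actin-capping subunit, stood at 232, 172 and 199 CPM and 154, 106 and 125 CPM (-0.65 ± 0.25). Neither gene's groups overlapped. The actin-sequestering peptide gene Tmsb4x stood at 967, 998 and 916 CPM and 410.2, 315 and 929 CPM, with minP1 replicate 3 inside the control range. The calmodulin genes Calm2 and Calm3 differed by -0.69 ± 0.36 and -0.54 ± 0.33. Of the 17 tested S100, annexin and calmodulin genes, 14 were negative, yet only Calm3 did not overlap (5.88%, beside 6.69% lower over all genes). The median of -0.27 was -0.10 without minP1 replicate 2.

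Cell cycle genes had a median of -0.21 over 23 tested, with 3 lower without overlap (13%, beside 6.69% over all genes). Hmmr, a mitotic spindle protein and hyaluronan receptor, stood at 88.7, 98.7 and 69.4 CPM in the controls and 48.9, 47.6 and 19.8 CPM with minP1 (-1.14 ± 0.38). Mki67, the proliferation marker, stood at 94.4, 117 and 134 CPM and 82.8, 80.6 and 75.7 CPM (-0.54 ± 0.29). Both lay below the controls in all 3 minP1 libraries, while the mitotic cyclin gene Ccnb2 differed by -0.27 ± 0.35 with overlap (-0.68 ± 0.39 without minP1 replicate 2). In the p53 and apoptosis list, 1 of 19 tested genes was higher (5.26%, beside 5.7%) and 3 were lower (15.8%, beside 6.69%) without overlap. The p53 target Phlda3 differed by -1.06 ± 0.47 and was lower without overlap, while Bcl2l1, described above, was the higher one. The p53 target Cdkn1a differed by 0.31 ± 0.25, and the median of the 19 genes was 0.00. Of 20 immediate early genes, 12 were positive and 8 negative. Ier3 (-0.70 ± 0.32) and Btg2 (-0.67 ± 0.31) were lower without overlap (10%, beside 6.69% over all genes) and no member was higher. Fos and Junb differed by -0.41 ± 0.25 and 0.39 ± 0.25. Without minP1 replicate 2, 5 of the 20 were higher without overlap (25%, beside 10.1%) and 2 lower, and the median moved from 0.08 to 0.17.

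Most other families lay within the spread of all genes. Medians were between -0.08 and 0.11 for glycolysis (17 tested genes), cytosolic heat shock (16), endoplasmic reticulum chaperones (16), amino acid stress (12), lysosome (32), autophagy (14), aminoacyl-tRNA synthetases (20), DNA replication (21) and HMG chromatin proteins (15). Without minP1 replicate 2 the glycolysis median turned from -0.08 to 0.14 and that of the HMG proteins from 0.00 to -0.11. The constitutive proteasome stood at -0.22 over 31 genes, with 3 lower without overlap (9.68%, beside 6.69%) and 7 without minP1 replicate 2 (22.6%, beside 10.9%), but its median was 0.06 without control replicate 1. The NRF2 and thiol antioxidant genes stood at -0.26 over 16, with no member lower without overlap and 1 higher (6.25%, beside 5.7%). Hmga2, an architectural chromatin protein of growing cells, was the 1 non-overlapping HMG gene (0.46 ± 0.24). That is 6.67% of the 15 tested, near the 5.7% higher over all genes. The 20 tested class I antigen presentation genes, by comparison, had a median of 0.60 with 5 higher without overlap (25%, beside 5.7%).

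**Figure D4:**
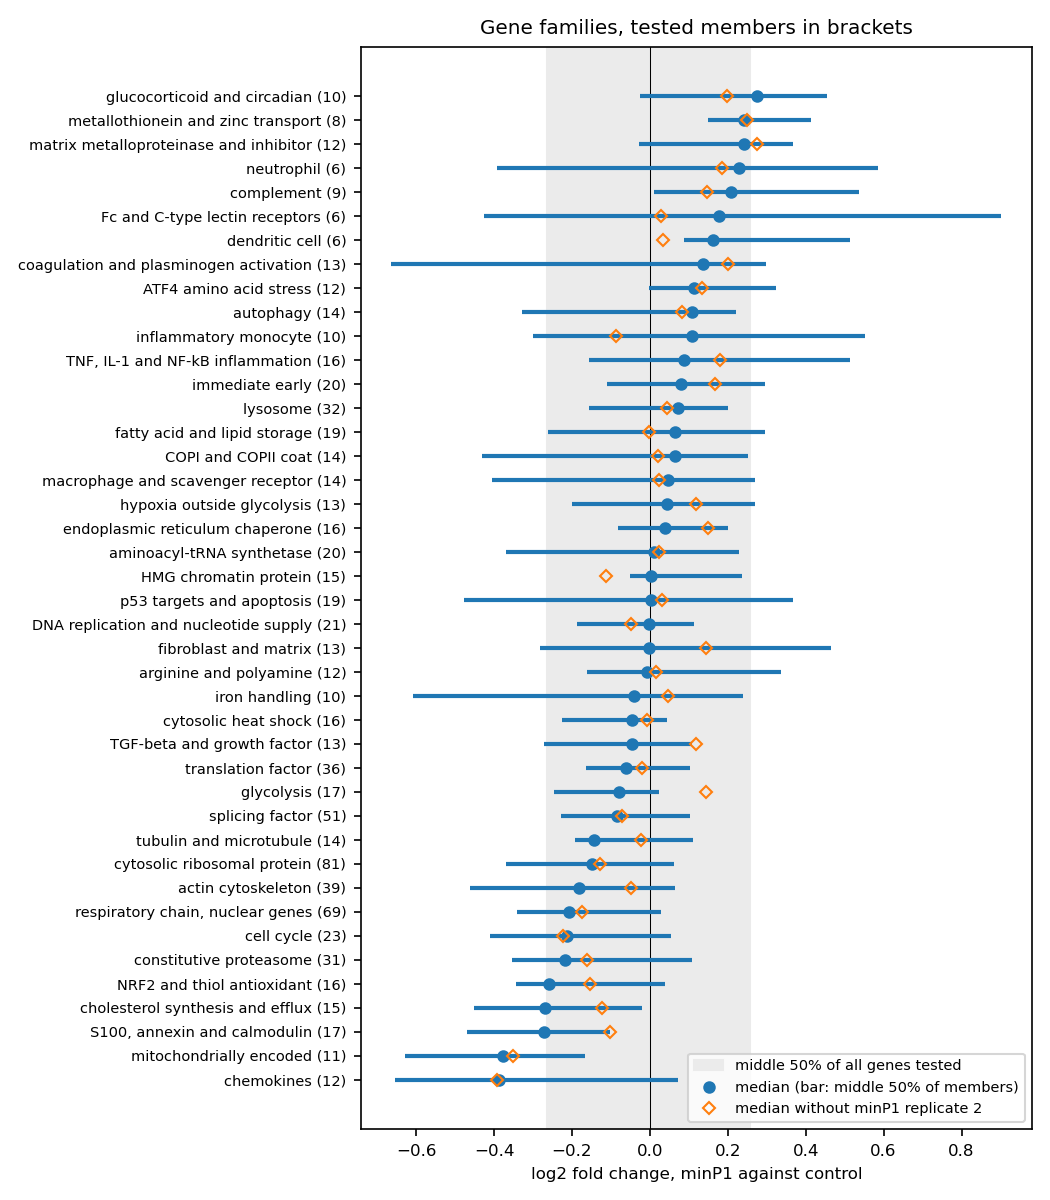
Median log2 fold change (minP1 against control, x axis) of each gene list with at least 6 tested genes, blue points with bars for the middle 50% of members, orange diamonds for the median without minP1 replicate 2, and a grey band for the middle 50% of all 5443 genes. Antigen presentation and interferon lists are not plotted. Chemokines at -0.39 and mitochondrially encoded genes at -0.38 lie below the band, cholesterol and calcium-binding protein genes at -0.27 just below it (-0.12 and -0.10 without minP1 replicate 2), and glucocorticoid and circadian genes at 0.28 just above it (0.20).

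By the sample titles, the same peptide was also given to antibody-treated mice. These 6 other libraries give another value for each gene, combination against anti-PD-L1. The combination libraries held 133917 to 196109 counts. There 378 of 5443 genes passed the test (6.94%), 163 higher (2.99%) and 215 lower (3.95%), but the count was 94 without combination replicate 1, 194 without combination replicate 2, 129 without anti-PD-L1 replicate 2 and 111 without anti-PD-L1 replicate 3. No gene passed the test of the difference between both minP1 effects in edgeR (0%, smallest adjusted p 0.0705, 600 genes at an unadjusted p under 0.05), where DESeq2 called 24 and limma voom 0. Of the 117 genes higher with minP1 alone, without overlap and at an unadjusted p under 0.05, 99 were positive under the antibody (84.6%), beside 60.1% of all genes that were positive without it. Without the 27 genes led by minP1 replicate 2 the count was 73 of 90 (81.1%). Of the 139 genes lower by the same rule, 109 were negative under the antibody (78.4%), beside 65.2% of all genes that were negative without it. Along the main axis of variation of the 12 libraries (49.7% of the variance of log2 levels), controls lay at -33.6 to -26.7 and minP1 at -24.5 to -0.21. Anti-PD-L1 libraries lay at -8.39 to 17.3 and combination libraries at 30.9 to 59.8. Both minP1 comparisons thus ran the same way along this axis. Its part in the shared signs was not tested.

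Of 105 genes named here, 24 passed under the antibody, 19 with the sign they had with minP1 alone and 5 with the opposite one. Over all genes tested, 6.94% passed. The named genes were chosen by p-value, by interest or after their values were seen, so these counts do not measure agreement. Golph3, Cd44 and Sept7 passed, in the direction they had with minP1 alone, whichever of its 6 libraries was left out. Their log2 fold changes there were 1.10 ± 0.23, 1.12 ± 0.23 and -1.89 ± 0.36 (edgeR adjusted p = 0.00571, 0.00535 and 0.00468). Tob1 (1.21 ± 0.26, adjusted p = 0.00754) passed unless anti-PD-L1 replicate 3 was left out, and Plaur (1.11 ± 0.27, adjusted p = 0.0149) unless anti-PD-L1 replicate 2 or combination replicate 1 was. Fcgr4 (1.31 ± 0.33, adjusted p = 0.0169) and Inpp5d (1.78 ± 0.49, adjusted p = 0.027) passed with all libraries, and in 2 and 1 of the 6 fits with a library left out. The ribosomal protein genes Rps23 (-2.41 ± 0.48), Rpl35 (-1.77 ± 0.32) and Rpl5 (-3.00 ± 0.51) passed in all 6. With minP1 alone, Rpl5 ranged from -0.96 to -0.29 when 1 library was left out. Hmgcs1 (-2.19 ± 0.61, adjusted p = 0.0303) and Fdps (-2.84 ± 0.85, adjusted p = 0.0434) passed with all libraries, and Hmgcs1 in none and Fdps in 1 of the 6 fits with a library left out. Ube2u (1.59 ± 0.42, adjusted p = 0.0231) passed as well, and in 2 of the 6 fits with a library left out. Prpf19 stood at 12.1, 7.41 and 10.3 CPM with anti-PD-L1 and had 0 counts in all 3 combination libraries (adjusted p = 0.0916), so no fold is given. Mt1 and Bcl2l1 differed by 0.28 ± 0.25 and 0.21 ± 0.28, and did not pass (adjusted p = 0.518 and 0.685).

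Mrc1, Ms4a7, Hmox1, S100a9 and Tnfaip3 were those that passed with the opposite sign. Mrc1 stood at 181, 200.2 and 138 CPM with anti-PD-L1 and 632, 376 and 349.8 CPM with the combination, a log2 fold change of 1.37 ± 0.30 (adjusted p = 0.00805), against -0.88 ± 0.31 without the antibody. The difference between both effects was 2.26 ± 0.43 (adjusted p = 0.0705), and the rise under the antibody did not pass without anti-PD-L1 replicate 3 or combination replicate 1. Ms4a7 differed by 1.39 ± 0.32 under the antibody, Hmox1 by 1.41 ± 0.32, S100a9 by 1.70 ± 0.41 and Tnfaip3 by -1.28 ± 0.37 (adjusted p = 0.0374, and passing in 1 of the 6 fits with a library left out). The differences between both effects for these 4 genes had adjusted p-values of 0.151, 0.181, 0.181 and 0.221. The chemokine genes Ccl2 and Ccl4 stood at 0.55 ± 0.34 and 0.84 ± 0.35 under the antibody, and their list at a median of 0.42 in place of -0.39. The ribosomal protein list stood at -0.82 under the antibody and the mitochondrially encoded list at -1.39.

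**Figure D5:**
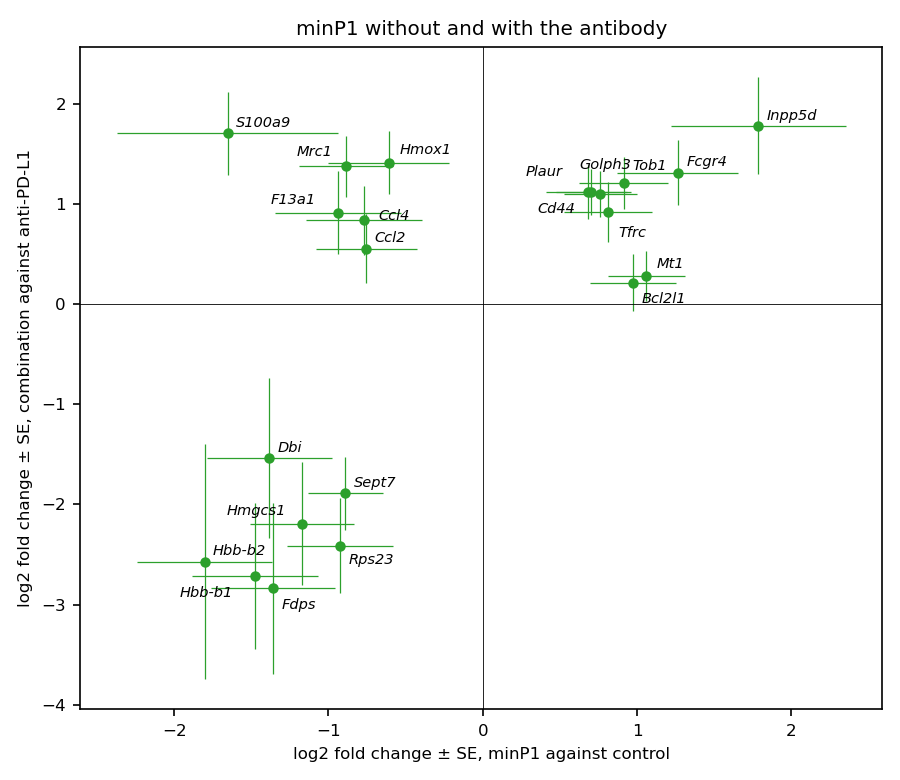
Log2 fold change of 22 genes with minP1 against control (x axis) and with the combination against anti-PD-L1 (y axis), bars showing the standard error. Golph3, Cd44, Tob1 and Fcgr4 lie at the upper right, Sept7, Hmgcs1, Fdps and Rps23 at the lower left, and Mrc1, Hmox1, S100a9, F13a1, Ccl2 and Ccl4 at the upper left.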

How the data were processed

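Counts were deposited by the authors, 1 table per sample, as whole-number counts per gene symbol, not normalized. The submitters' processing notes name Bowtie2 (version 2.2.5), R (version 3.6.1) and DESeq2, with the mm10 build. What each tool did, and how strand and multiply matching reads were treated, is not given in the sources used here. Groups came from the sample titles. The minP1 treatment field reads MGN1 and was taken as HMGN1, the name in the protocol. The treatment field of the combination samples names no peptide, so their group rests on the titles.

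Counts were fitted for all 12 samples with edgeR 4.0.16 (R 4.3.3): filterByExpr, TMM scaling, quasi-likelihood test, 1 mean per group, Benjamini-Hochberg adjustment, threshold 0.05. Standard errors are the log2 fold change over the square root of F. Alternatives used DESeq2 1.42.0 and limma 3.58.1, other scaling and filters, thinning, a replicate block and leaving out libraries.

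The comparison and the 54 lists were chosen with earlier results of these data known, so no list is independent evidence. Named genes were the 12 per direction with the smallest p, no overlap and at least 10 CPM, predicted genes and antigen presentation and interferon genes aside, up to 3 per list, and genes of interest around HMGN1 and TLR4. Other list members, and those the text says, were named after their values were seen. A few genes of these lists are not reported here, and list counts include them. Upstream sequences came from RefSeq (GRCm38.p6) and gene positions from GENCODE M21.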

Additional observations from a re-analysis of the deposited data

How the results depend on the processing

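For minP1 against control, 0 genes passed with all libraries, and also with DESeq2 size factors, with the 6 samples alone, with limma voom, after thinning and without the Bc1, Lrrc17 and ribosomal RNA counts. Without a filter on low counts 51 passed, 45 of them higher, and in 43 of the 51 minP1 replicate 2 held over 50% of the minP1 counts. DESeq2 called 1. With 1 library left out the count ranged from 0 to 5: Gbp2b, Irf1, Ly6a, Mt1 and Tap1 without control replicate 3, Cdk15, Ntm, Prkag3, Ttbk1 and Ube2u without minP1 replicate 1, and Ube2u without minP1 replicate 3. Under the antibody 378 passed, 123 after thinning and 94 to 472 with 1 library left out. For the difference between both effects 0 passed, 37 without the filter, 24 with DESeq2 and 0 to 8 with 1 library left out. The cause of these differences was not tested.

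With the replicate number as a block, 0 genes passed for minP1 against control (429 against 383 at an unadjusted p under 0.05), 478 under the antibody and 16 for the difference. Same-numbered control and minP1 libraries correlated in their deviations at 0.067, 0.109 and 0.134, and the antibody groups at 0.164, -0.063 and 0.211, so the numbers were not taken as pairs. Each minP1 library correlated best with the control of its own number, a hint from the data and not from the design.

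Of the named genes' log2 fold changes under the alternatives, 1381 kept their sign and call, 21 newly passed and 22 changed sign. Hba-a1 was at -0.16 with limma voom, -0.16 with the block, -0.067 after thinning and -0.82 (without minP1 replicate 2) to 0.37 with 1 library left out. Hba-a2 was at -0.17 with voom, -0.14 with the block and -0.88 (without minP1 replicate 2) to 0.49 with 1 library left out. Thinning put Ccl2 at 0.22 and Ccl4 at 0.79. With 1 library left out, MT-Co3 ranged from -0.19 to 0.83, Rplp1 from -0.10 to 0.50 and Siglech from -0.069 to 2.08, each lowest without minP1 replicate 2. Ccnb2 ranged from -0.68 to 0.12, Idi1 from -0.83 to 0.048 and Hmgn1 from -0.17 to 0.12, each highest without control replicate 1, Il1b from -0.74 to 0.22 and Cd83 from -0.24 to 1.31. List medians moved by less than the spread between libraries in 638 cases and by more in 101.

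Counts of list members without overlap, recomputed without minP1 replicate 2, were added after the data were seen. They were 23 of 81 lower for ribosomal proteins, 13 of 69 for nuclear respiratory genes, 5 of 12 for chemokines, 8 of 39 for actin genes, 7 of 31 for the proteasome and 7 of 51 for splicing factors, beside 10.9% of all genes. On the higher side they were 5 of 20 for immediate early genes, 4 of 16 for TNF, IL-1 and NF-kB genes and 4 of 19 for fatty acid genes, beside 10.1% of all genes. With 3 libraries per group and at most 473273 counts, genes such as Tlr4, Cd86 and Il12b had too few counts for the filter.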

Other observations

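Further lists had medians within the middle 50% of all genes tested (-0.26 to 0.26). Over all genes, 5.7% were higher and 6.69% lower without overlap. Complement genes had a median log2 fold change of 0.21 over 9 tested, with 1 lower and none higher without overlap. Matrix metalloproteinases and their inhibitors stood at 0.24 over 12 tested, with no non-overlapping member. Fibroblast and matrix genes stood at 0.00 over 13 tested, with 1 higher and 2 lower without overlap, and their sum was 3578 to 3678 CPM in the controls and 3168 to 4949.5 CPM with minP1. Fatty acid and lipid storage genes (19 tested, median 0.06) held 2 non-overlapping members in each direction, and coagulation and plasminogen activation genes (13 tested, median 0.14) 2 higher and 1 lower. Arginine and polyamine genes (12 tested, median -0.01), hypoxia genes outside glycolysis (13 tested, median 0.04) and phagocyte NADPH oxidase genes (4 tested, median -0.01) held none. Tubulin genes (14 tested) stood at -0.14, coat protein genes (14 tested) at 0.06 and growth factor genes of the TGF-beta list (13 tested) at -0.05. Too few counts limited endothelial markers (1 tested of 15) and mast cell and basophil markers (1 tested of 9).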
